A study of Mus musculus with 4 samples.

Results

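Integrins are the cell's receptors for extracellular matrix, and laminins and collagens are the matrix proteins that many of them bind. Their genes were followed in mouse embryonic stem cells with and without depletion of Usp22. The members were taken by gene symbol, as every gene with 1 symbol in the platform annotation whose name starts as an integrin alpha or beta chain, a laminin chain or a collagen chain does. That pattern found 84 of the 19938 genes measured. They comprised 18 integrin alpha chains, 9 integrin beta chains, 10 laminin chains and 44 collagen chains. The other 3, Itgb1bp1, Itgb1bp2 and Itgb3bp, carry an integrin name because their products bind integrin tails, and they encode no chain.

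An integrin is a dimer of an alpha and a beta chain that joins the matrix outside the cell to the cytoskeleton inside. Laminins are trimers of an alpha, a beta and a gamma chain and, together with collagen IV, build the basement membrane, the first matrix an embryo makes. Collagens form triple helices, and the fibrillar types make up the bulk of connective tissue. Stem cells in culture attach to gelatin, which is denatured collagen, or to laminin and serum proteins, through integrins that contain the Itgb1 or Itgav product.

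The cells were E14, a mouse embryonic stem cell line, and RNA was measured on 4 Affymetrix arrays, 2 for each group. The control cells carried a lentiviral shRNA against Luc and the depleted cells a lentiviral shRNA against Usp22, the deubiquitinase of the SAGA coactivator complex. Both groups grew without feeders on gelatin in 20% FBS with LIF. The medium also held 2 inhibitors, PD0325901 against MEK (1 µM) and CH99021 against GSK3 (3 µM), which keep such cells in the naive state. The labels name no clone and do not say that the replicates were separate cultures, and the p-values therefore reflect just how far these arrays spread, which may be technical.

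Signals are log2 intensities after quantile normalization, and a log2 fold change is the depleted minus the control mean. Each test is limma's, fitted over all 19938 genes, with a Benjamini-Hochberg adjusted p under 0.05 as the threshold. One standard error, 0.27 on the log2 scale, applied to every gene, and the smallest change called was 0.86. The median of all genes was −0.12. A dim signal was judged against 1196 olfactory and vomeronasal receptor genes, and the 95th percentile of their mean signals, 6.99, is called the receptor background. Signals of different genes depend on their probes and are not set against each other here.

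Usp22 read 9.41 and 9.36 in control cells, against 8.23 and 8.29 in depleted cells (log2 fold change −1.12, limma adjusted p = 0.00826). Of 12 stem cell markers, 11 were above the receptor background and 0 rose or fell (limma; at an unadjusted p under 0.05, 1 was higher and 1 lower). With limma's intensity trend and robust options together 1 of these markers rose and 2 fell, against 1.91% and 1.7% of all genes. In 4 of them both depleted arrays lay above both controls and in 4 below, against 27.4% and 33.3% of all genes. Control replicate 2 stood apart from the other arrays. Along the leading principal component (75.1% of the variance) it lay at −55.5, against −3.30 for control replicate 1 and 37.0 and 21.9 for the depleted arrays. Many of the values that rest on that array, but not all, are given with and without it. In RNA from a whole culture, fewer cells of a type and less RNA per cell cannot be told apart.

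The promoters of 4 genes with an integrin name that stood higher after depletion show the kind of sequence that lies before them. RefSeq windows on GRCm38.p6 were at hand for 61 of the 84 genes, and the 250 bases before the start were searched on both strands for the GC box GGGCGG, the CCAAT box CCAAT and the TATA box TATAAA. A GC box and a CCAAT box can share bases where they touch. Shown are the bases before Itgb5 (chr16:33829415-33829664, plus strand), Itgb1 (chr8:128685404-128685653, plus strand) and Itga5 (chr15:103366792-103367041, minus strand), which encode chains of fibronectin and vitronectin receptors, and before Itgb3bp (chr4:99829216-99829408, minus strand), where bases inside an annotated gene were left off. Each runs 5′ to 3′, and capitals mark a motif.
Itgb5: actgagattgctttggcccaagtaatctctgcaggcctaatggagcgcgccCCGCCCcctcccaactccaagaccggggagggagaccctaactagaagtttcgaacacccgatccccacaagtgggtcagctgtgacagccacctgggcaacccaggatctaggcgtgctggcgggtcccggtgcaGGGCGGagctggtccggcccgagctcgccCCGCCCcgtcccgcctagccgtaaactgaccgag
Itgb1: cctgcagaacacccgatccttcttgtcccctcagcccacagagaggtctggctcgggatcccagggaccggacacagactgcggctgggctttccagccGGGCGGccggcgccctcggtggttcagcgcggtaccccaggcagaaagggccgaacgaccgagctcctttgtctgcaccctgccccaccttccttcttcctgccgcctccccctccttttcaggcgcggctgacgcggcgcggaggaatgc
Itga5: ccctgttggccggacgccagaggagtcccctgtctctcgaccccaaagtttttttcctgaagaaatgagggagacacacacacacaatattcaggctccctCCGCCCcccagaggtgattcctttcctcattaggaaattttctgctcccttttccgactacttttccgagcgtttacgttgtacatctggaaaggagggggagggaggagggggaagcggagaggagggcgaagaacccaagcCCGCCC
Itgb3bp: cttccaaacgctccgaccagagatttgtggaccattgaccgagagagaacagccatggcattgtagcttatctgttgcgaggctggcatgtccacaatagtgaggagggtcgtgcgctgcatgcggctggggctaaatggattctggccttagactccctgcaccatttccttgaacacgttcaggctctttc

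The Itgb5 stretch held 3 GC boxes, Itgb1 held 1, Itga5 held 2 and Itgb3bp held 0, and none of the 4 held a CCAAT or TATA box. A GC box was found in 29 of the 61 member windows (47.5%), against 33% of the 27025 RefSeq windows, 1 per gene. Among collagen genes 21 of 35 windows held one (60%), and 5 of 35 held a TATA box (14.3%, against 13.0% of all windows). Stretches of 250 bases before member genes had a median of 10 CpG dinucleotides, against 6 over all windows. Among member genes whose arrays did not overlap, the median was 17 for the 7 of 13 with a window that stood higher after depletion. It was 7 for the 33 of 45 that stood lower, and 10 for the 21 of 26 members whose arrays overlapped. All genes were not split in this way, so these medians have no reference. These are descriptions of the sequence and not of binding.

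Of the 84 genes, 2 rose, the integrin beta chain gene Itgb5 and the binding protein gene Itgb3bp, and 0 fell (limma; at an unadjusted p under 0.05, 9 were higher and 12 lower). Over all genes, 2.62% rose and 0.105% fell, and at an unadjusted p under 0.05 in limma 3078 of 19938 were higher and 1322 lower. With limma's intensity trend and robust options together 0 members rose and 1 fell, Col2a1, against 1.91% and 1.7% of all genes. With the trend alone 1 rose, Itgb5, and 1 fell, Col2a1 (1.64% and 1.43% of all genes), and with robust settings alone 1 rose, Itgb5, and 0 fell (1.48% and 0.0552%). Both calls were lost without control replicate 2 and without either depleted array. Without control replicate 1, control replicate 2 alone stands for the controls. The calls in that fit are given at the end, beside those of all genes. The median log2 fold change of the members was −0.33, against −0.12 for all genes. Genes whose depleted arrays both lay beyond both control arrays numbered 13 upwards and 45 downwards among the members, against 27.4% and 33.3% of all genes. The families differed in their values: the integrin alpha chains had a median of −0.13, the laminins −0.31 and the collagens −0.45. Leaving out control replicate 2 moved the laminin median to −0.07, and leaving out depleted replicate 1 or 2 moved it to −0.19 or −0.20. Leaving out control replicate 1 put the integrin alpha median at −0.20, and leaving out depleted replicate 2 put it at −0.21. The integrin beta chains had a median of 0.12, which flipped to −0.04 on the deposited log2 values, to −0.17 without control replicate 2 and to −0.02 without depleted replicate 2. Among chains above the receptor background the median was 0.12 for 4 integrin alpha chains and 0.41 for 5 laminins, opposite in sign to the medians over each whole family, and that of the laminins was 0.21 without control replicate 2. No test compared the families, since genes are not replicates of a condition. The median of the 84 members stayed below 0 under both other scalings. It was −0.33 after centring every array, and −0.47 for the unscaled deposited values as log2, where all genes had a median of −0.24.

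**Figure D1:**
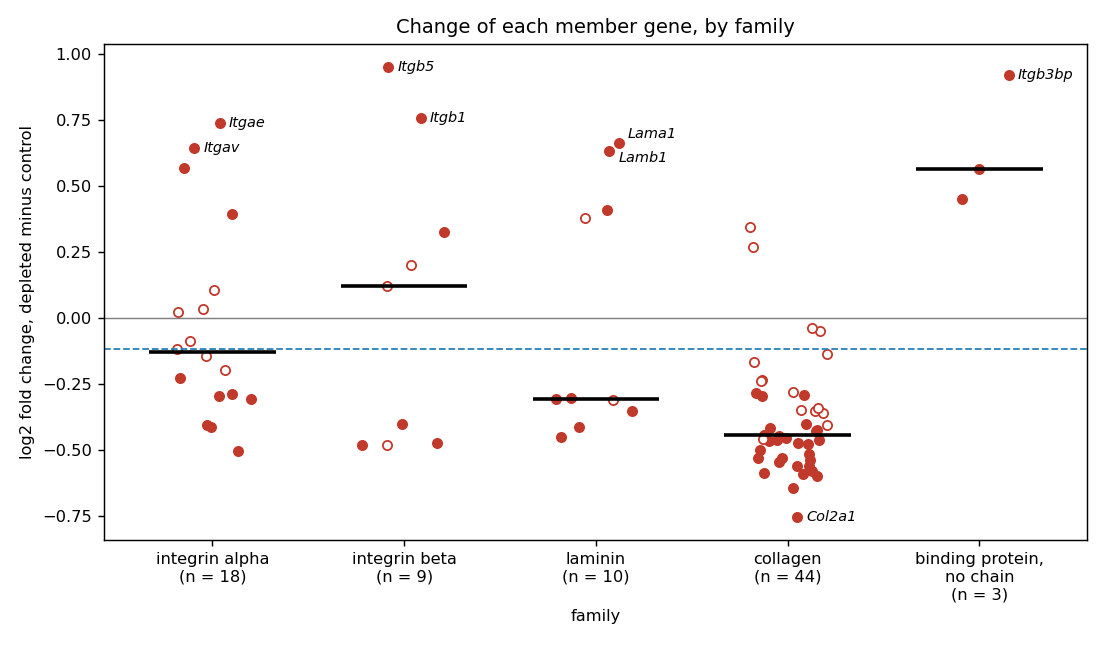
Log2 fold change (depleted minus control, vertical axis) of each of the 84 member genes, by family. Filled points are genes whose 2 depleted arrays lay beyond both control arrays, open points overlapped, the black bar is the family's median and the dashed line the median of all genes (−0.12). Collagens gather around −0.45, while Itgb5 and Itgb3bp stand highest at 0.95 and 0.92.

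Itgb5 pairs with the Itgav chain in a receptor for vitronectin, a serum protein. Control cells gave a log2 signal of 7.32 and 6.46 for Itgb5, and depleted cells 7.88 and 7.81. Both depleted arrays lay above both controls, and the lower control was replicate 2. Itgb5 rose 1.93-fold, a log2 fold change of 0.95 with a standard error of 0.27 (limma adjusted p = 0.0289). Without control replicate 2 the log2 fold change was 0.52 and the call was lost (limma adjusted p = 0.269), and it was also lost without depleted replicate 1 (0.830) or 2 (0.425), on the deposited log2 values (0.101) and with limma's trend and robust options together (0.0513).

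Its partner Itgav encodes the alpha chain shared by the vitronectin receptors. Itgav read 7.77 and 7.41 in controls and 8.26 and 8.21 in depleted cells, without overlap, and did not pass the test (log2 fold change 0.64, limma adjusted p = 0.150). Itgb1, the beta chain of most matrix receptors, read 7.96 and 7.36 against 8.46 and 8.36, again without overlap (0.76, limma adjusted p = 0.0897). Itgb1 passed with each array centred on its median (0.90, limma adjusted p = 0.0338) and when only genes above the receptor background were fitted (limma adjusted p = 0.0338) or the dimmer 0.5 of genes was left out (0.0319). Itga5, which forms the classical fibronectin receptor with Itgb1, read 6.83 and 6.10 in controls and 7.03 on both depleted arrays (0.57, limma adjusted p = 0.197). Control replicate 2 was the lowest array for Itgb1, Itgb5, Itgav and Itga5 alike. Without it the log2 fold change was 0.46 for Itgb1, 0.46 for Itgav and 0.20 for Itga5.

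The laminin receptor chains went different ways. Itga6, which pairs with Itgb1 or Itgb4 and is a surface marker of many stem cells, read 8.44 and 8.40 in controls and 8.85 and 8.78 in depleted cells. Its arrays did not overlap, and the difference of 0.39 did not pass (limma adjusted p = 0.330). Itga3 read 7.94 and 7.64 in controls and lower, 7.36 and 7.40, in depleted cells (−0.41, limma adjusted p = 0.316). Itgb4, the beta chain of epithelial hemidesmosomes, read 7.53 and 8.44 in controls and 7.47 and 7.54 in depleted cells. Here control replicate 2 was the high array, and the depleted arrays lay at or near control replicate 1, so that the log2 fold change of −0.48 (limma adjusted p = 0.257) was −0.03 without that array.

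**Figure D2:**
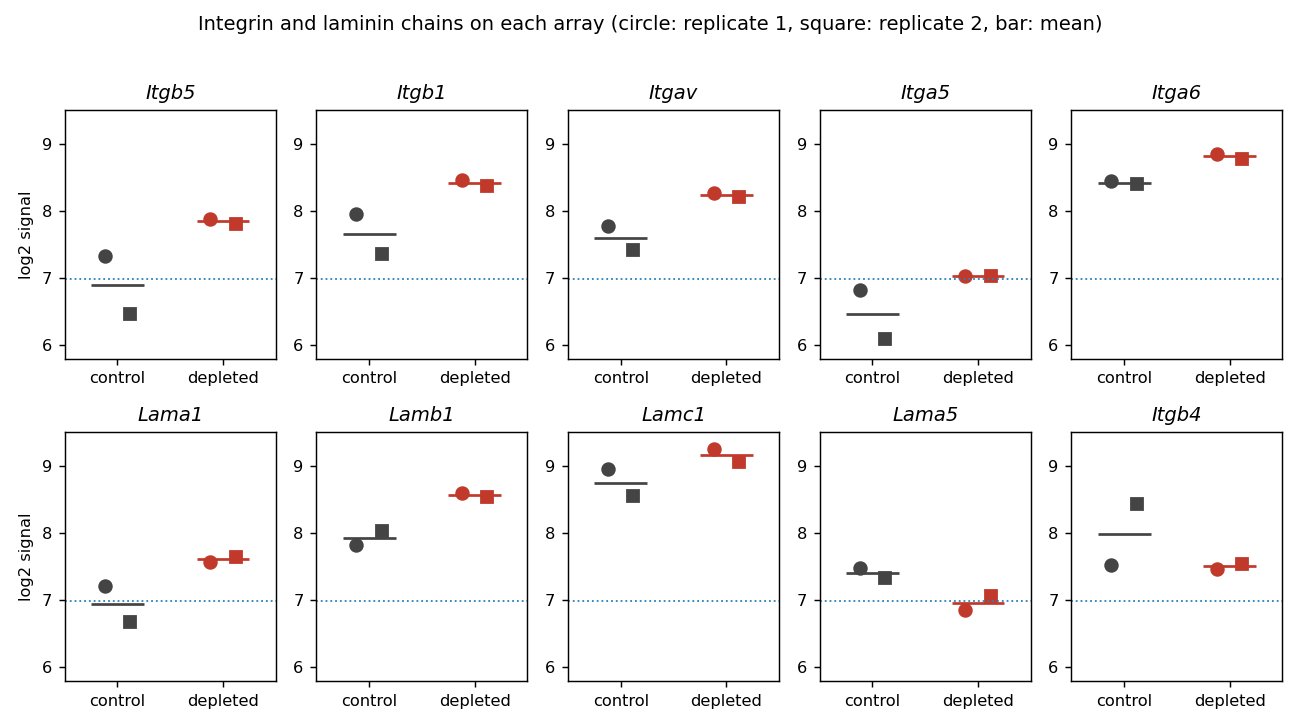
Log2 signal (vertical axis) of 8 integrin and laminin chains that stood higher after depletion and 2 that stood lower by their means, on each array. Circles are replicate 1, squares replicate 2, bars group means, and the dotted line the receptor background at 6.99. In Itgb5, Itgb1, Itgav, Itga5, Itga6, Lama1 and Lamc1 control replicate 2 lies lowest, and in Itgb4 it lies highest, at 8.44.

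The other integrin chains were mostly dim, and none of them passed. By the mean over the arrays, 4 of 18 alpha chains and 4 of 9 beta chains were above the receptor background: Itgav, Itga3, Itga6 and Itgad, and Itgb1, Itgb3, Itgb4 and Itgb5. Of all 19938 genes 2.62% rose and 0.105% fell, and at an unadjusted limma p under 0.05, 3078 were higher and 1322 lower. Over all 18 alpha chains 0 rose and 0 fell (limma; at an unadjusted p under 0.05, 3 were higher and 0 lower), with log2 fold changes from −0.50 to 0.74. The highest was Itgae, the alpha chain of intraepithelial lymphocytes, at 6.38 and 6.28 in controls and 7.22 and 6.91 in depleted cells (limma adjusted p = 0.0976). Its mean over the arrays was under the receptor background. Itga11, a collagen receptor chain, stood at the low end (−0.50, limma adjusted p = 0.240, and −0.28 without control replicate 2), and all 4 collagen-binding alpha chains, Itga1, Itga2, Itga10 and Itga11, were under the receptor background. Of the beta chains, 1 rose and 0 fell (limma; at an unadjusted p under 0.05, 2 were higher and 0 lower). Itgb2l, a relative of the leukocyte beta chain, read 6.81 and 6.86 in controls and 6.24 and 6.47 in depleted cells (−0.48, limma adjusted p = 0.258).

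The 5 leukocyte alpha chains, Itgal, Itgam, Itgax, Itgad and Itgae, had a median of −0.20, or −0.08 without depleted replicate 1. Of 12 measured markers of endothelium and blood, 6 were above the receptor background and 0 rose or fell (limma; at an unadjusted p under 0.05, 3 were higher and 2 lower). Their summed linear signal was 1651 and 1893 in controls and 1840 and 1748 in depleted cells. Ptprc, the pan-leukocyte antigen gene, read between 6.50 and 6.84 on the 4 arrays, under the receptor background, as were Lyz2, Cdh5, Kdr, Tek and Tie1. Above it were Cd3e, Cd68, Csf1r, Adgre1, Pecam1 and Vwf. Cd68, a macrophage marker, stood at 0.77 and Cd3e, a T cell marker, at −0.58 (limma adjusted p = 0.0842 and 0.190). Adgre1, Csf1r and Lyz2, also markers of macrophages, stood lower, at −0.52, −0.42 and −0.44 (limma adjusted p = 0.232, 0.305 and 0.288). Without control replicate 2 Adgre1, Csf1r and Lyz2 stood at −0.24, −0.21 and −0.51, and Cd68 and Cd3e at 0.71 and −0.34. Pecam1 stood at 0.69 (limma adjusted p = 0.122). Of the 12 markers, 4 were above 0 and 8 below. The part of such cells in the integrin values was not tested.

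Itgb3bp, also known as a centromere protein gene, rose 1.89-fold. It read 6.03 and 6.11 in controls and 7.25 and 6.72 in depleted cells, without overlap (log2 fold change 0.92, limma adjusted p = 0.0352). Its mean over the 4 arrays was under the receptor background, and depleted replicate 1 was the only array over it. Without control replicate 2 the log2 fold change was 0.96 and the limma adjusted p 0.0576, and without depleted replicate 1 or 2 the log2 fold change was 0.65 and 1.18 (0.830 and 0.359). The call was also lost on the deposited log2 values (limma adjusted p = 0.133), and with limma's intensity trend (0.0795) or robust settings (0.0543). Itgb1bp1, which binds the tail of the Itgb1 product, and Itgb1bp2, a muscle protein gene, stood at 0.45 and 0.56 and did not pass (limma adjusted p = 0.279 and 0.199). Each stood at 0.30 without control replicate 2.

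Among the laminins the chains of the embryonic trimer, Lama1, Lamb1 and Lamc1, stood higher after depletion, while Lama5 and Lamb2 stood lower, and none passed the test (limma; at an unadjusted p under 0.05, 2 of 10 were higher and 0 lower). By the same unadjusted limma threshold 3078 of all 19938 genes were higher and 1322 lower. Lama1 read 7.21 and 6.68 in controls and 7.56 and 7.65 in depleted cells (log2 fold change 0.66, limma adjusted p = 0.137). Lamb1 read 7.82 and 8.04 against 8.59 and 8.53 (0.63, limma adjusted p = 0.156). Lamc1, the gamma chain of nearly all laminins, read 8.95 and 8.55 against 9.26 and 9.06 (0.41, limma adjusted p = 0.315). In each of the 3 genes both depleted arrays lay above both controls. Without control replicate 2 the log2 fold change was 0.40 for Lama1, 0.74 for Lamb1 and 0.21 for Lamc1, so that only Lamb1 was not smaller.

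Lama5, the alpha chain of a laminin used as a substrate for pluripotent cells, stood lower, at 7.48 and 7.34 in controls and 6.85 and 7.06 in depleted cells (−0.45, limma adjusted p = 0.278). Lamb2, the beta chain that can take the place of Lamb1, read 7.87 and 8.04 in controls and 7.41 and 7.79 in depleted cells (−0.35, limma adjusted p = 0.372). Neither gene's arrays overlapped. The remaining laminins, Lama2, Lama3, Lama4, Lamb3 and Lamc3, were under the receptor background. Lamc3 stood at −0.42 (limma adjusted p = 0.309) and at −0.08 without control replicate 2.

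Lama1, Lamb1, Lamc1, Col4a1 and Col4a2 are made in large amounts by primitive endoderm, a cell type that can arise in stem cell cultures. Of 15 primitive endoderm markers 6 were above the receptor background, 1 rose (Srgn, a proteoglycan gene, log2 fold change 1.43) and 0 fell (limma; at an unadjusted p under 0.05, 1 was higher and 1 lower). By its mean over the arrays Srgn was under that background. Of the 15 markers, 12 stood below 0 and 3 above. In 11 both depleted arrays lay below both controls, and in 2 above, against 33.3% and 27.4% of all genes. Amn had the lowest log2 fold change, −0.69 (limma adjusted p = 0.122), or −0.48 without control replicate 2. Sox17, which specifies endoderm, read 7.13 and 7.60 in controls and 6.90 and 6.93 in depleted cells. Gata4 read 7.12 and 7.65 against 6.83 and 6.94, while Gata6 had a log2 fold change of 0.02. The summed linear signal of the list was 2639 and 2954 in controls and 2487 and 2606 in depleted cells, highest on control replicate 2. The part of endoderm cells in the laminin values was not tested.

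By their means 42 of 44 collagen genes stood lower after depletion, and 0 rose or fell (limma; at an unadjusted p under 0.05, 0 were higher and 12 lower). Their log2 fold changes ran from −0.76 to 0.34. Among all genes 11440 of 19938 were below 0, and at an unadjusted limma p under 0.05, 3078 were higher and 1322 lower. In 30 of the 44 both depleted arrays lay below both controls, against 33.3% of all genes, and in 0 both lay above. Their median was −0.45, or −0.42 after centring every array and −0.56 for the unscaled deposited values as log2. The receptor genes had a median of −0.20.

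The mean signal of 22 collagen genes exceeded the receptor background. All 22 had a log2 fold change below 0, and in 17 both depleted arrays lay below both controls, against 37.7% of the 9738 genes above that background. In 0 both lay above, against 36.8%. Their median was −0.47, where that of all genes above the background was −0.03. Leaving out control replicate 2 moved the median of the 44 collagens to −0.32, and leaving out depleted replicate 1 moved it to −0.29. Of the 44, 5 stood above 0 when control replicate 1 was left out, 4 when depleted replicate 1 was, and 2 when either other array was. Of the 22 brighter genes, 1 stood above 0 without control replicate 1 or depleted replicate 1. The highest of the 4 arrays was control replicate 2 for 32 of the 44 collagens (72.7%, against 42.7% of all genes), and the lowest was depleted replicate 1 for 35 (79.5%, against 35.8%).

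**Figure D3:**
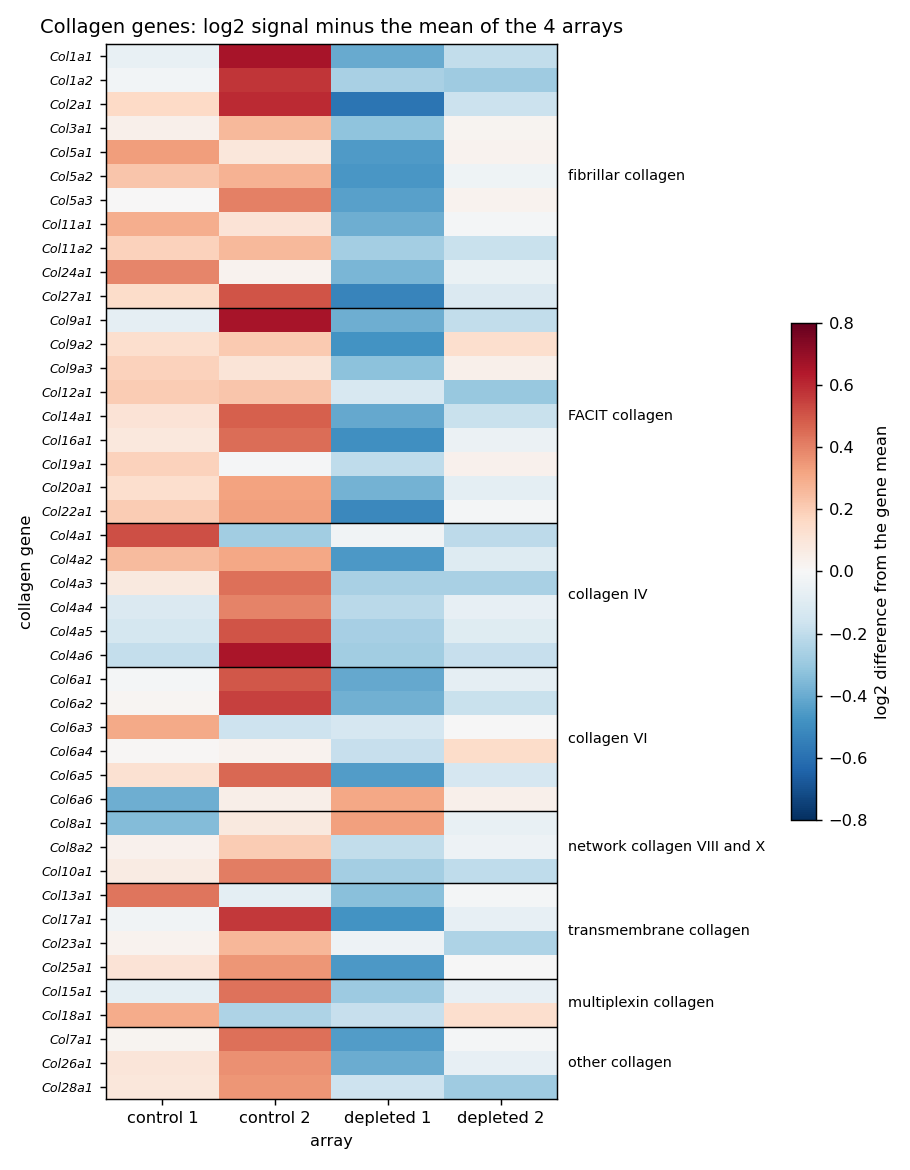
Log2 signal of each of the 44 collagen genes (rows, by collagen class) on each array (columns), as the difference from the gene's mean over the 4 arrays (red higher, blue lower). Control replicate 2 is the highest array for 32 genes and depleted replicate 1 the lowest for 35.

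Of the collagen genes, the fibrillar Col2a1, the collagen of cartilage and notochord, had the lowest log2 fold change. It read 8.66 and 9.10 in controls and 7.92 and 8.33 in depleted cells, 1.69-fold lower by the means (log2 fold change −0.76, limma adjusted p = 0.0897). Its arrays did not overlap, and each group's 2 arrays were about as far apart as the other's (SD 0.31 and 0.29, n = 2 each). With limma's trend and robust options together Col2a1 fell (adjusted p = 0.0248), as 1.7% of all genes then did. It fell with the trend alone as well (limma adjusted p = 0.0316). It also passed when only genes above the receptor background were fitted (limma adjusted p = 0.0338) and with the dimmer 0.5 of genes left out (0.0319). Leaving out control replicate 2 gave Col2a1 a log2 fold change of −0.54.

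Col1a1 and Col1a2 encode the chains of collagen I, the main collagen of skin, bone and fibroblasts and the source of gelatin. Col1a1 read 7.92 and 8.64 in controls and 7.58 and 7.78 in depleted cells (−0.60, limma adjusted p = 0.177). Col1a2 read 7.50 and 8.09 against 7.26 and 7.23 (−0.55, limma adjusted p = 0.212). In both, control replicate 2 was the high array, and without it the log2 fold changes were −0.24 and −0.25. Col3a1, which accompanies collagen I in soft tissue, stood at −0.30 (limma adjusted p = 0.444) and at −0.19 without control replicate 2. Col27a1, a fibrillar collagen of cartilage, read 8.34 and 8.70 in controls and 7.67 and 8.08 in depleted cells (−0.65, limma adjusted p = 0.149). All 11 fibrillar genes were below 0, from −0.76 to −0.30, and in 10 of them both depleted arrays lay below both controls, against 33.3% of all genes.

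Fibroblasts are a source of collagen I that a culture could hold. Of 12 fibroblast markers 2 were above the receptor background, the surface antigen gene Thy1 and the transcription factor gene Snai2, and 0 rose or fell (limma; at an unadjusted p under 0.05, 1 was higher and 0 lower). The matrix genes Dcn, Lum and Postn, which define fibroblasts, were under that background. The summed linear signal of the list was 1111 and 1258 in controls and 1135 and 1157 in depleted cells, highest on control replicate 2. That array was the highest for 42.7% of all genes. Of the 2 markers above the background, Snai2 was highest on it (7.84) and Thy1 lowest (7.87). The part of fibroblasts in the collagen values was not tested.

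Collagen IV forms the sheet of the basement membrane, and its 6 genes stand in 3 head-to-head pairs. In the RefSeq table the spans of Col4a1 and Col4a2, on opposite strands, overlap by 85 bases and those of Col4a3 and Col4a4 by 114, while Col4a5 and Col4a6 lie 1274 bases apart. Col4a1 read 7.13 and 6.33 in controls and 6.58 and 6.40 in depleted cells, so that the groups overlapped (−0.24, limma adjusted p = 0.534). Its neighbour Col4a2 read 7.54 and 7.59 against 6.83 and 7.18, without overlap (−0.56, limma adjusted p = 0.200). Without control replicate 1 Col4a1 turned to 0.16, and without control replicate 2 it stood at −0.64, while Col4a2 stood at −0.59 and −0.54. Of the other pairs, Col4a3 stood at −0.52 and Col4a4 at −0.28, and Col4a5 at −0.36 and Col4a6 at −0.46. These were −0.34, −0.03, −0.04 and −0.04 without control replicate 2. Only Col4a2 of the 6 was above the receptor background.

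The fibril-associated collagens, which coat fibrils, numbered 9 and were all below 0, with a median of −0.45. Col14a1 had the lowest p of this class, from 6.60 and 6.97 to 6.08 and 6.31 (−0.59, limma adjusted p = 0.180), and was under the receptor background. Col9a1, a partner of collagen II in cartilage that was named after its value was seen, read 7.79 and 8.52 in controls and 7.47 and 7.67 in depleted cells (−0.59, limma adjusted p = 0.183, and −0.22 without control replicate 2). Col18a1, the basement membrane collagen that gives rise to endostatin, read 7.68 and 7.14 in controls and 7.20 and 7.51 in depleted cells (−0.05, limma adjusted p = 0.897). Its groups overlapped, and its sign turned to 0.22 without control replicate 1 and to 0.11 without depleted replicate 1. The 4 transmembrane collagens ran from −0.54 to −0.29.

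Collagen VI, which makes beaded microfibrils, held 1 of the 2 collagen genes above 0. These were Col6a6 at 0.34 and Col8a1, of a short-chain collagen, at 0.27 (limma adjusted p = 0.383 and 0.488), both under the receptor background and both with overlapping arrays. Col6a6 has a second, slightly dimmer probe set that stood at −0.30, opposite in sign. Col6a5 also has a pair of probe sets that disagreed, at −0.58 for the brighter and 0.55 for the dimmer. The counts above take each gene by its brighter probe set, so the places of Col6a5 and Col6a6 in them rest on that choice. The probe sets of Itgad, the third member with more than one, stood at −0.15 and −0.34.

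**Figure D4:**
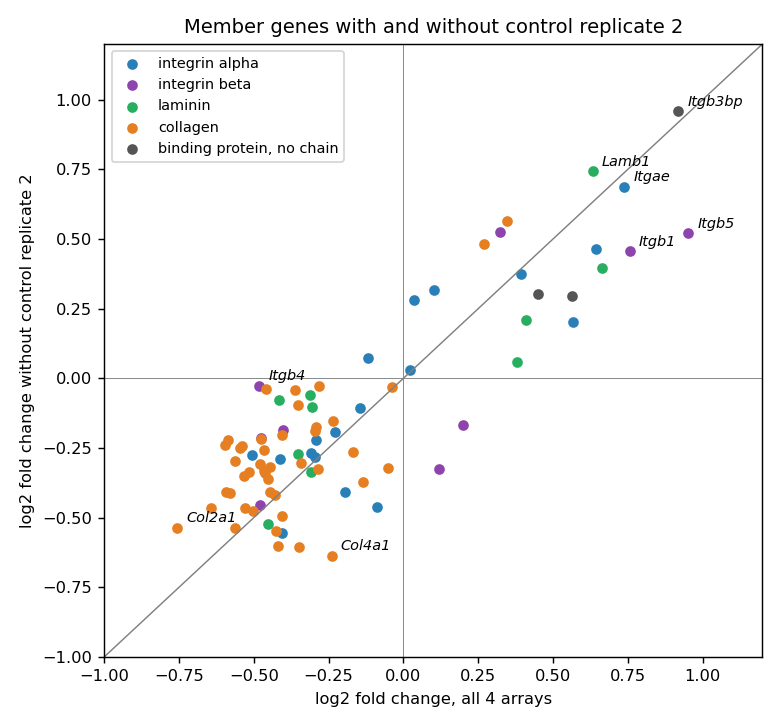
Log2 fold change of each of the 84 member genes over all 4 arrays (horizontal axis) and without control replicate 2 (vertical axis), coloured by family, with the line of equality. Without that array Itgb5 moves from 0.95 to 0.52 and Col2a1 from −0.76 to −0.54, while Itgb3bp and Lamb1 stay near the line.

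Other genes of the matrix were taken from 5 lists. Their counts stand beside 2.62% of all genes that rose and 0.105% that fell. At an unadjusted limma p under 0.05, 3078 of all 19938 genes were higher and 1322 lower. Collagen folding and crosslinking enzymes had a median of 0.23, or 0.12 without control replicate 2 and 0.34 without control replicate 1. Of 27 measured, 2 rose and 0 fell (limma; at an unadjusted p under 0.05, 8 were higher and 1 lower). They were P4ha1, a subunit of the prolyl hydroxylase that stabilises the collagen helix, and Plod2, the lysyl hydroxylase that prepares collagen for crosslinking. P4ha1 read 7.07 and 6.73 in controls and 7.80 and 7.93 in depleted cells (log2 fold change 0.96, limma adjusted p = 0.0273). Plod2 read 7.65 and 7.33 against 8.53 and 8.26 (0.91, limma adjusted p = 0.0381). Neither had overlapping arrays, and without control replicate 2 they stood at 0.79 and 0.74 and were not called (limma adjusted p = 0.110 and 0.129). Neither was called without depleted replicate 1 (limma adjusted p = 0.830 for both) or 2 (0.464 and 0.411), or on the deposited log2 values (0.0933 and 0.0908). With robust settings alone Plod2 missed the threshold (limma adjusted p = 0.0580). Ctage5, which takes part in collagen export, stood at 0.75 (limma adjusted p = 0.0933). Named after their values were seen, Bmp1 stood at −0.66 and the crosslinking genes Lox, Loxl1, Loxl4 and Loxl3 at −0.37, −0.51, −0.47 and 0.37. Without control replicate 2 these were −0.34, −0.25, −0.16, −0.32 and 0.08. Lox and Loxl3 were under the receptor background. In the whole list 16 genes stood above 0 and 11 below. With limma's trend and robust options together 3 rose and 1 fell, against 1.91% and 1.7% of all genes.

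Among 19 basement membrane partners, proteins that lie beside laminin and collagen IV, 0 rose or fell (limma; at an unadjusted p under 0.05, 5 were higher and 0 lower). Their median was 0.14, or 0.32 and 0.09 when control replicate 1 or 2 was left out, and 0.24 and 0.04 when depleted replicate 1 or 2 was. Smoc1, a matricellular gene, read 6.55 and 6.15 in controls and 7.29 and 7.13 in depleted cells (0.86) and missed the threshold at a limma adjusted p of 0.0502. Pxdn, whose product crosslinks collagen IV, and Egfl6 stood at 0.59 each (limma adjusted p = 0.178 and 0.183), and Pxdn at 0.22 without control replicate 2. By their means over the arrays Smoc1, Pxdn and Egfl6 were under the receptor background. Of 16 other integrin ligands 0 rose or fell (limma; at an unadjusted p under 0.05, 1 was higher and 4 lower), with a median of −0.22, or −0.40 without control replicate 1. The lowest p values were those of the addressin gene Madcam1 (0.78, limma adjusted p = 0.0776), of Edil3 (−0.61, 0.169) and of the adhesion molecule gene Vcam1 (−0.57, 0.193). Madcam1, Edil3 and Vcam1 were under the receptor background as well.

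Of 32 genes of the adhesion machinery inside the cell, a list that includes the 3 binding protein genes above, 1 rose, Itgb3bp, and 0 fell (limma; at an unadjusted p under 0.05, 6 were higher and 6 lower). The median of −0.12 turned to 0.11 without control replicate 1 and was −0.21 without control replicate 2. With limma's trend and robust options together 0 of these genes rose and 3 fell, against 1.91% and 1.7% of all genes. Tns1, which links integrin tails to actin, read 8.96 and 9.37 in controls and 8.36 and 8.52 in depleted cells (−0.72, limma adjusted p = 0.106), and it was one of those 3 (limma adjusted p = 0.0150). Kank1, a talin partner gene, stood at 0.68 (limma adjusted p = 0.127). Of 17 genes of matrix degradation 1 rose and 0 fell (limma; at an unadjusted p under 0.05, 3 were higher and 0 lower). The median of −0.02 became −0.24 or −0.11 when replicate 1 of the controls or of the depleted cells was left out, and 0.02 when replicate 2 of either was. The gene was Reck, a membrane inhibitor of matrix metalloproteinases, at 6.57 and 5.87 in controls and 7.19 and 7.04 in depleted cells (0.89, limma adjusted p = 0.0414). Its mean over the arrays was under the receptor background. Without control replicate 2 Reck stood at 0.54 and was not called (limma adjusted p = 0.259), nor was it without depleted replicate 1 (0.830) or 2 (0.428), on the deposited log2 values (0.137) or with the intensity trend (0.0845) or robust settings (0.0621). The metalloproteinase inhibitor genes Timp3 and Timp1 stood at 0.62 and 0.56 (limma adjusted p = 0.165 and 0.199), and Timp3 was under the receptor background.

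Trophectoderm, the epithelium around the early embryo, also makes laminin and integrin chains. Of its 10 markers 5 were above the receptor background and 0 rose or fell (limma; at an unadjusted p under 0.05, 1 was higher and 2 lower). Their summed linear signal was 2265 and 2204 in controls and 1836 and 1892 in depleted cells, without overlap. Of the 10 markers, 6 stood below 0, among them Krt18 (−0.60) and Krt8 (−0.53), and 4 above, among them Krt19 (0.64) and Tfap2c (0.07). The arrays of Krt19 and Tfap2c overlapped. Without control replicate 2 these 4 genes stood at −0.62, −0.49, 0.14 and −0.09, and 2 of the 10 markers were above 0. In 6 both depleted arrays lay below both controls, and in 1 above, against 33.3% and 27.4% of all genes. The part of such cells in the values above was not tested.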

How the data were processed

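RNA was measured on 4 one-colour arrays, 2 control and 2 Usp22 depleted, grouped by the titles. The authors deposited 1 linear intensity per probe set and array for 28856 probe sets. What background correction, summary and scaling lie behind it is, like the build, not given in the sources used here. Array medians ran from 110 to 128, the lowest intensity was 16.0, and the number of arrays limits the precision. After log2 transformation the arrays were quantile-normalized, which sets aside any change in total signal. GEO's platform annotation, which can be old, gave 1 symbol to 21789 probe sets, several to 1621 and none to 5446. Another 3 probe sets name a member beside a second gene and were not used. The brightest probe set by mean was kept per gene, which left 19938 genes.

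The two-sided test was limma's (version 3.58.1, under R 4.3.3), through lmFit and eBayes on 2 groups. There were 2 residual degrees of freedom, and the prior was infinite. An exact permutation test of 2 against 2 cannot go below p = 0.333. The fit was tested on simulated data. Named were called members, the 4 of lowest p in each of 4 families, a fixed set of known chains, and in each of 5 lists the called genes and the 3 of lowest p. Members, lists and 5 marker lists were chosen with earlier results of these data known. Promoters are RefSeq's for GRCm38.p6, taking each gene's 5′-most window. Alternatives changed scaling, variance model, probe set averaging, dim gene filters, the replicate block and single arrays.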

Additional observations from a re-analysis of the deposited data

How the results depend on the processing

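Of the 84 members, 2 were called higher and 0 lower with limma. The counts were 3 and 0 after centring every array, 0 and 0 for the unscaled deposited log2 values, 1 and 1 with the intensity trend, 1 and 0 with robust settings, 0 and 1 with both, and 2 and 1 with the dimmer 0.5 of genes left out or only genes above the receptor background. Leaving out 1 array gave between 0 and 13 higher and between 0 and 32 lower. The 13 and 32 came without control replicate 1, where 4884 and 4236 of all genes were called, against 523 and 21 of all genes with 4 arrays, 66 and 2 without control replicate 2, and 0 higher without either depleted array, with 0 lower when depleted replicate 1 was left out and 1 when depleted replicate 2 was. The lone array of a group is there assumed to vary like the other group. Over all genes the counts were 927 and 20 with centring, 75 and 10 on the deposited log2 values, 326 and 286 with the trend, 295 and 11 with robust settings, 381 and 339 with both, 739 and 36 without the dimmest 0.25 of genes, 692 and 148 without the dimmer 0.5, and 624 and 121 above the receptor background.

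The members' median log2 fold change of −0.33 was −0.47 on the deposited log2 values, −0.41 with either the dimmer 0.5 of genes left out or only genes above the receptor background, which test fewer members, and between −0.41 and −0.24 without 1 array. Sign changes among named genes came from single arrays: Col4a1 ran from −0.64 to 0.16 and Col18a1 from −0.32 to 0.22. For other settings the cause of a changed call was not tested.

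With the replicate number as a block, 2 members were called higher and 0 lower, with a median of −0.33, and 856 and 42 of all genes. The labels do not say that the numbers pair the arrays, and same-numbered arrays deviated together at a correlation of 0.105 across genes. The block brought Smoc1 and Madcam1 under the threshold (limma adjusted p = 0.0287 and 0.0483) and changed no other named call.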
